A study of Mus musculus with 6 samples.

Results

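The 36 mouse genes described here carry glucose into the cell, split it to pyruvate, turn pyruvate into lactate, move lactate across the membrane or pass pyruvate on to the mitochondrion, and they include the germ cell isoforms of 4 of these steps. They were taken by gene symbol from a table of 54232 genes and were not filtered by their values. The list was, however, chosen with earlier results of these data known. Each symbol matched a gene of the table, and *Aldoa* matched 2 of its rows, of which the gene on chromosome 7 (ENSMUSG00000030695.16) was used and a second entry with at most 12 counts in a library was not. The values are RNA-seq counts of whole testes of B6D2F1 mice at postnatal day 12. The control group holds 3 libraries labelled Dis3l2 WT, and the other group, called KO-labelled here, holds 3 libraries labelled Dis3l2 KO. Per the study's methods the mutants are *Stra8-Cre*; *Dis3l2* F/- males, with 1 floxed and 1 deleted allele, and the controls their littermates. Cre acts there in part of the spermatogonia and in early spermatocytes, and the somatic cells of the testis are not its target. The study describes the 3 libraries of a group as biological replicates, and the labels do not tie them to single animals. DIS3L2 is a cytoplasmic exoribonuclease and DIS3 a ribonuclease of the RNA exosome. The labels name *Dis3l2* whereas the design text names a *Dis3* cKO. *Dis3l2* had 25.8, 23.5 and 23.0 CPM (counts per 1000000 counts, scaled by TMM) in the control and 31.6, 25.4 and 27.5 CPM in KO-labelled testes (log2 fold change 0.22, edgeR adjusted p = 0.136), while *Dis3* fell by 1.13 on the log2 scale (edgeR adjusted p = 2.7e-07). At the same age the study reports that in situ hybridization found no *Dis3l2* RNA in mutant pre-meiotic germ cells and spermatocytes. It also reports less *Dis3l2* RNA by RT-qPCR and less DIS3L2 protein by immunoblot in mutant testes. The counts here cover the whole gene and all cells of the testis, somatic cells included. Since the labels and the design text differ, the group is named by its label only.

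Glycolysis turns glucose into pyruvate in a chain of enzymatic steps in the cytosol. In the seminiferous tubule the Sertoli cells, the somatic nurse cells of the germ line, take up glucose, run glycolysis to lactate and export it, and spermatocytes use this lactate as fuel. Male germ cells switch on their own isoforms as they enter and pass through meiosis. *Pgk2* and *Pdha2* are intronless copies of the X-linked genes *Pgk1* and *Pdha1*, and the X chromosome is silenced in spermatocytes. *Ldhc* encodes the lactate dehydrogenase of spermatocytes and sperm, and *Gapdhs* the glyceraldehyde-3-phosphate dehydrogenase of spermatids and sperm.

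The germ and somatic isoforms of these 4 enzymes can only be counted apart if reads tell them apart. The coding sequences of the pairs were 75.6% identical for *Pdha1* and *Pdha2*, 73.9% for *Ldha* and *Ldhc*, 79.3% for *Pgk1* and *Pgk2* and 71.5% for *Gapdh* and *Gapdhs*. The longest run that a pair shared was 20 to 22 bases, and 0 runs of 50 bases, the length of the reads, were shared within a pair. The 60 bases of coding sequence (GRCm38, 5′ to 3′ on the strand of the gene) around the longest shared run are given for 3 of the pairs, with that run in capitals, to show how soon the isoforms part on either side of it.
Pdha1: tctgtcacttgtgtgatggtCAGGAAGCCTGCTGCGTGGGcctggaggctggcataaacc
Pdha2: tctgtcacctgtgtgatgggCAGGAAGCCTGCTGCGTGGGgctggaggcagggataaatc
Ldha: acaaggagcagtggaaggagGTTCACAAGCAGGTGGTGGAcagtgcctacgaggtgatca
Ldhc: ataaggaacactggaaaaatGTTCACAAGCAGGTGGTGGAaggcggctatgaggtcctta
Gapdh: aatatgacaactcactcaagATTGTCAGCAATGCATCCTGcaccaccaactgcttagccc
Gapdhs: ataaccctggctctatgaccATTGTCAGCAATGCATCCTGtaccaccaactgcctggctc

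The *Pdha1* stretch lies on chromosome X, 160130199 to 160132091 on the minus strand, where it spans exons 3 and 4 of 11, and the *Pdha2* stretch on chromosome 3, 141211415 to 141211474 on the minus strand, in the gene's only exon. *Ldha* (chromosome 7, 46841475 to 46855627) and *Ldhc* (chromosome 7, 46861203 to 46878142) are neighbours on the plus strand with 5575 bases between them, and both stretches span exons 6 and 7 of 8. The *Gapdh* stretch lies in exon 4 of 7 on chromosome 6 (125162893 to 125162952, minus strand) and that of *Gapdhs* in exons 6 and 7 of 11 on chromosome 7 (30732662 to 30733079, minus strand).

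Of the 36 genes, 33 had counts high enough to be tested (edgeR's filterByExpr), and *Gapdhs*, *Pgk2* and *Pgam2* had too few. At an adjusted p under 0.05 (edgeR's quasi-likelihood test, Benjamini-Hochberg over all genes tested), 17 of the 33 were higher in the KO-labelled libraries, beside 16.2% of the 20327 genes tested. *Eno3* and *Pdha2* were lower, which is 2 of 33 beside 16.5% of all genes, and 14 had no call. The rises were small, from 0.22 to 0.95 on the log2 scale, and in each of the 17 genes all 3 KO-labelled libraries lay above all 3 control libraries, an order that 21.7% of all genes showed. Counting both directions, the groups did not overlap in 21 of the 33 genes, beside 45.5% of all genes. The median log2 fold change of the 33 genes was 0.28, beside -0.02 over all genes tested. Together the 36 genes took 3013 to 3052 CPM in control testes and 3961 to 4368 CPM in KO-labelled testes. All 17 rises were among the 25 genes with at least 10 CPM in a group, and 0 of those 25 were lower by edgeR (0 at an unadjusted p under 0.05, 0 by DESeq2). This filter takes the higher group mean, so it favours rises and no direction is read from it. *Aldoc* (mean 7.32 CPM in control and 10.99 in KO-labelled testes) and *Slc2a3* (9.78 and 14.5) entered through the KO-labelled group only. *Eno3* (7.43 and 4.14) and *Pdha2* (7.32 and 3.45) did not enter. Levels per kilobase of exons had the same leading genes in both groups, *Ldhb*, *Bsg*, *Aldoa* and *Pkm*, at 487, 227, 100.4 and 78.8 CPM per kb in control testes. All these directions are relative to TMM, which holds the bulk of genes level between libraries. Of the 17 rises, 14 also lay above 0 when the libraries were scaled to somatic cell markers, *Slc2a1*, *Hk1* and *Pdha1* being the exceptions, and 2 when they were scaled to Sertoli cell markers, as set out after the single genes.

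**Figure D1:**
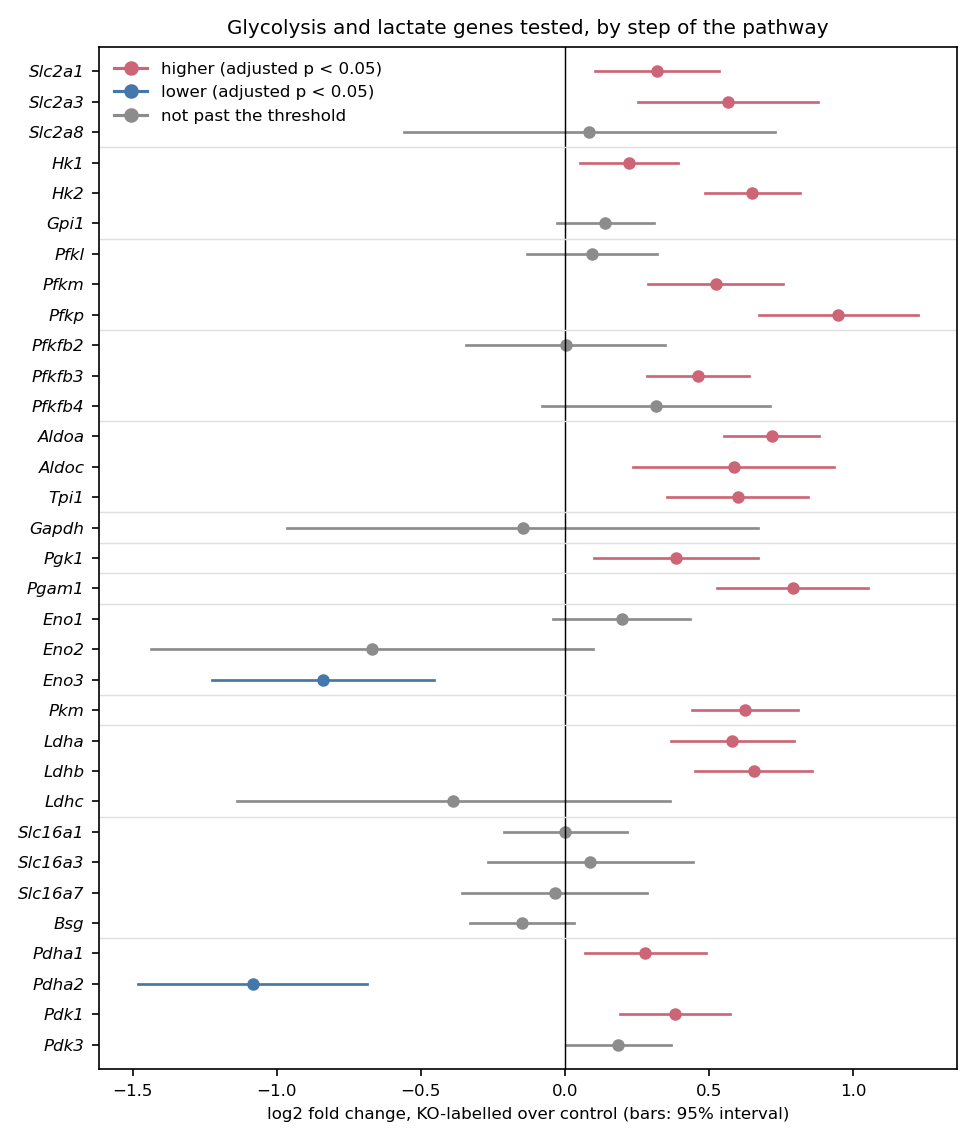
Log2 fold change of each of the 33 tested genes under TMM scaling, KO-labelled over control (points), with its 95% interval (bars), in the order of the pathway from glucose transporters at the top to pyruvate dehydrogenase kinases at the bottom. The 17 genes past the threshold on the right lie between 0.22 and 0.95, and only *Eno3* and *Pdha2* passed it on the left; scaled to somatic markers, 3 genes were higher and 5 lower.

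Cell type markers were read beside these genes under TMM, where 16.2% of all genes tested were higher and 16.5% lower. The 13 Sertoli cell markers were all higher, led by *Amh*, the anti-Müllerian hormone (log2 fold change 1.56), and their summed level was 8244 to 8760 CPM in control testes and 13380 to 13990 CPM in KO-labelled testes, 1.62-fold higher. The 14 meiotic prophase markers were all lower, *Sycp2* of the synaptonemal complex by a log2 fold change of -2.28, with sums of 1703 to 2110 against 469.3 to 615.8 CPM. Of 10 pan-germ cell markers 8 were lower (*Tex15*, -2.12), as were 4 of 7 tested markers of pachytene and later spermatocytes (*Clgn*, -1.44). Rises were also called for 4 of 10 markers of undifferentiated spermatogonia (*Eomes*, 2.09), 5 of 7 of Leydig cells (*Hsd3b6*, 0.83) and 6 of 10 of macrophages (*Csf1r*, 0.47). Stromal cells had 2 of 8 higher (*Pdgfra*, 0.52, median of the list 0.27) and endothelial cells 2 of 10 (*Cdh5*, 0.39, median of the list -0.10). These 2 counts are near the share of all genes. Peritubular myoid cells had 3 of 9 lower (*Cnn1*, -0.68). Spermatid markers summed to 1.84 to 2.85 CPM in control testes and 1.45 to 2.28 CPM in KO-labelled testes, with *Tnp2* at 0 counts in all 6 libraries. In RNA of a whole testis, fewer cells of a type and less RNA per cell cannot be told apart, and the part of the cell makeup in the changes of the glycolytic genes was not tested.

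Glucose enters cells through facilitative transporters. *Slc2a1*, which encodes the widespread transporter GLUT1, had 30.5, 27.8 and 31.6 CPM in control testes and 34.2, 40.7 and 37.4 CPM in KO-labelled testes. The groups did not overlap and *Slc2a1* was higher by 0.32 under TMM and at -0.01 under somatic marker scaling (log2, SE, the standard error, 0.10, edgeR adjusted p = 0.0244). *Slc2a3*, encoding the high-affinity transporter GLUT3, had 10.2, 8.73 and 10.4 CPM against 12.2, 16.3 and 14.8 CPM, again without overlap, and rose by 0.57 (SE 0.15, edgeR adjusted p = 0.00808). *Slc2a8*, for the intracellular GLUT8, ranged from 1.6 to 4.47 CPM over the 6 libraries and the groups overlapped (log2 fold change 0.08). The call of *Slc2a1* depended on single libraries. Its adjusted p from edgeR was 0.0649 without control replicate 1, 0.0536 without control replicate 2 and 0.118 without KO-labelled replicate 2.

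Hexokinase traps glucose as glucose 6-phosphate. *Hk2*, the inducible hexokinase, had 140, 137 and 139 CPM in control testes and 203, 231 and 219 CPM in KO-labelled testes. The gap between the groups was far wider than the spread within either, with a log2 fold change of 0.65 (SE 0.08, edgeR adjusted p = 2.0e-05). *Hk1*, the constitutive form, had 75.9, 69.2 and 77.1 CPM against 88.2, 84.9 and 85.9 CPM and rose by 0.22 under TMM, with -0.11 under somatic marker scaling (SE 0.08, edgeR adjusted p = 0.0449). That call was lost in 5 of the 6 fits with a library left out, with adjusted p from edgeR of 0.0658 to 0.107; the fit without control replicate 3 was the exception. *Gpi1*, the isomerase of the next step, overlapped between the groups (110 to 124 against 123 to 133 CPM, log2 fold change 0.14, edgeR adjusted p = 0.196).

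Phosphofructokinase commits the sugar to glycolysis and is built from liver (*Pfkl*), muscle (*Pfkm*) and platelet (*Pfkp*) type subunits. *Pfkp* had 13.2, 12.7 and 11.7 CPM in control testes and 28.5, 21.8 and 22.3 CPM in KO-labelled testes. It had the largest rise among the 33 tested genes, a log2 fold change of 0.95 (SE 0.13, edgeR adjusted p = 6.51e-05). *Pfkm*, with 22.1, 24.1 and 27.4 CPM against 35.0, 38.4 and 32.5 CPM, rose by 0.52 (edgeR adjusted p = 0.00195), also without overlap. *Pfkl* gave no call and its libraries overlapped, at 38.7 to 41.5 CPM in control testes and 38.4 to 49.9 CPM in KO-labelled testes (log2 fold change 0.09). The bifunctional PFKFB enzymes make and remove fructose 2,6-bisphosphate, the activator of phosphofructokinase. *Pfkfb3*, the form with the strongest kinase activity, had 49.2, 53.0 and 49.3 CPM against 66.4, 70.2 and 72.2 CPM and rose by 0.46 (SE 0.08, edgeR adjusted p = 6.21e-04). *Pfkfb2* (0.00) and *Pfkfb4*, a form known from testis (0.32, edgeR adjusted p = 0.212), did not pass, and their groups overlapped.

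Aldolase splits the 6-carbon sugar and triose phosphate isomerase interconverts its products, and all 3 genes of these steps rose under TMM, with values above 0 under somatic marker scaling and below 0 under Sertoli marker scaling. *Aldoa*, the widespread aldolase, had 291, 277 and 309 CPM in control testes and 490, 490 and 462 CPM in KO-labelled testes. Its log2 fold change of 0.72 (SE 0.08) had the smallest adjusted p of the 33 genes, 8.91e-06 from edgeR. *Tpi1* had 26.8, 23.6 and 31.3 CPM against 45.3, 40.7 and 37.8 CPM and rose by 0.60 (edgeR adjusted p = 0.00103). *Aldoc*, the aldolase named for brain, had 7.66, 7.34 and 6.95 CPM against 13.1, 8.87 and 11 CPM and rose by 0.59 (edgeR adjusted p = 0.0125). Without KO-labelled replicate 1 its value was 0.45 and the adjusted p 0.0538 from edgeR.

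*Gapdh*, the somatic glyceraldehyde-3-phosphate dehydrogenase and a common reference gene, set 1 library apart from the other 5. It had 23.5, 23.4 and 23.0 CPM in control testes and 29.0, 28.9 and 5.21 CPM in KO-labelled testes. The first 2 KO-labelled libraries lay above the control and KO-labelled replicate 3 far below it, with 199 counts where the other libraries had 815 to 1238. The log2 fold change was -0.15 with a standard error of 0.38 (edgeR adjusted p = 0.806), and without KO-labelled replicate 3 it was 0.32 (edgeR adjusted p = 0.0362). Of the 50-base runs of *Gapdh* transcripts, 25.1% occur in other annotated genes, 211 of them pseudogenes, and the table leaves out reads that map to several places. These pseudogenes held 1653, 1931 and 2248 counts in control testes and 2116, 2684 and 3143 counts in KO-labelled testes. The processed pseudogene *Gm13394* (chromosome 2, 28933610 to 28934609), which shares 901 such runs, had 435, 548 and 532 counts in the control, 590 and 741 in the first 2 KO-labelled libraries and 1593 in replicate 3. *Gapdh* thus took 31.1% to 34.0% of the sum of *Gapdh* and pseudogenes in the other 5 libraries and 5.95% in KO-labelled replicate 3. The sum itself was 71.1, 68.8 and 74.1 CPM in control testes and 87.2, 91.6 and 87.5 CPM in KO-labelled testes, without overlap. Fitted as 1 feature, an alternative chosen after the values had been seen, the sum was higher by 0.32 (SE 0.08, edgeR adjusted p = 0.00588), and *Gapdh* with *Gm13394* alone by 0.37 (edgeR adjusted p = 0.00418).

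**Figure D2:**
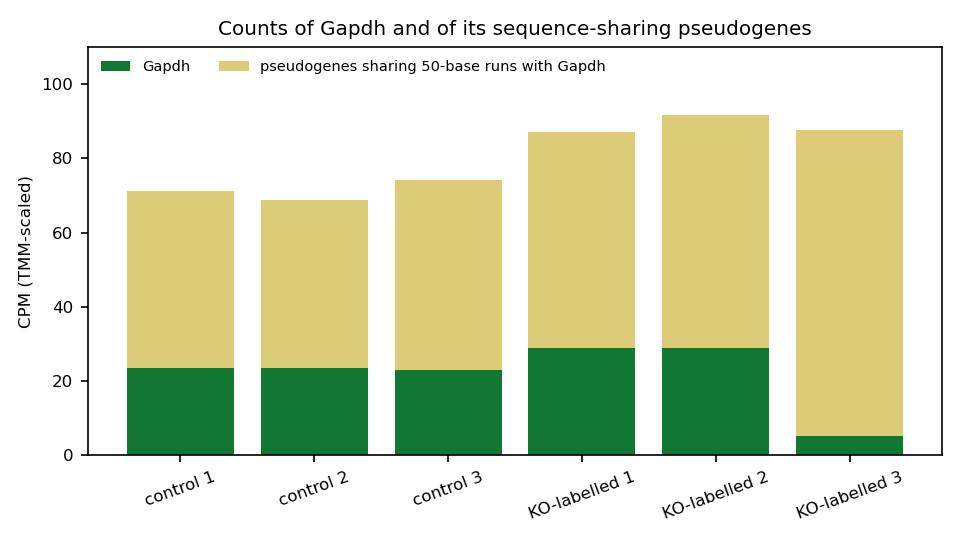
CPM (TMM-scaled, stacked bars) of *Gapdh* and of the 211 pseudogenes that share 50-base runs with it, in each of the 6 libraries. KO-labelled replicate 3 stands apart by the *Gapdh* part of its bar (5.21 CPM), while its whole bar (87.5 CPM) is as high as those of the other KO-labelled libraries.

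The lower steps, from 1,3-bisphosphoglycerate to pyruvate, rose at both kinases and the mutase under TMM, and also lay above 0 under somatic marker scaling. *Pgam1*, the widespread phosphoglycerate mutase, had 49.8, 49.3 and 46.7 CPM in control testes and 105, 70.9 and 76.0 CPM in KO-labelled testes. The groups were well apart, with KO-labelled replicate 1 the highest library, and the log2 fold change was 0.79 (SE 0.12, edgeR adjusted p = 2.03e-04). *Pkm*, which encodes pyruvate kinase M, had 428, 360 and 394 CPM against 652, 578 and 595 CPM and rose by 0.63 (SE 0.09, edgeR adjusted p = 6.97e-05). *Pgk1*, the somatic phosphoglycerate kinase that makes the first ATP of the pathway, had 18.3, 22.8 and 19.3 CPM against 31.5, 24.4 and 23.1 CPM. Its groups nearly touched, and its rise of 0.38 (edgeR adjusted p = 0.0383) was not called without control replicate 1 (adjusted p = 0.166), without control replicate 3 (0.117) or without KO-labelled replicate 1 (0.176). Sequence shared with other genes bears on these genes too, and their levels are uncertain to that extent. Of the 50-base runs, 53.9% of those of *Pgk1*, 36.2% of *Pgam1*, 26.0% of *Eno1*, 25.8% of *Pkm* and 21% of *Ldhb* occur in other genes. For *Pkm* these include 623 runs of *Gm49759*, which overlaps 767 exonic bases of *Pkm* on the same strand and is not a copy elsewhere. *Pgam2*, the muscle mutase, had 36 counts over the control and 23 over the KO-labelled libraries and was not tested.

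Of the 3 enolases only *Eno3* passed the test. *Eno3*, the beta enolase best known from muscle, had 8.47, 6.96 and 6.86 CPM in control testes and 3.52, 4.65 and 4.24 CPM in KO-labelled testes. All KO-labelled libraries lay below the control and the log2 fold change was -0.84 (SE 0.18, edgeR adjusted p = 0.00233). Of 5 tested skeletal muscle markers 0 passed edgeR's test (1 at an unadjusted p under 0.05, *Tnnt3*, higher by 0.92). *Myh4* lay below the control in all KO-labelled libraries without a call (-0.69). The markers summed to 13.5 to 14.3 CPM in control testes and 13.8 to 18.8 CPM in KO-labelled testes, most of it *Myh1* (9.31 to 14.1 CPM). *Eno1*, the widespread alpha enolase, had 139, 172 and 158 CPM against 153, 212 and 173 CPM, and the groups overlapped (0.20, edgeR adjusted p = 0.194). Without KO-labelled replicate 1 it was called at 0.31 (edgeR adjusted p = 0.0382), and summed with its copy *Eno1b* it was not (0.22, edgeR adjusted p = 0.150). *Eno2*, the gamma enolase of neurons, had at most 2.51 CPM in a library (-0.67, edgeR adjusted p = 0.173).

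Lactate dehydrogenase joins pyruvate to lactate. *Ldhb*, encoding the H subunit, was the most abundant of the 36 genes per kilobase of exons in both groups, at 487 ± 37.8 CPM per kb (SD, n = 3) in control testes and 767 ± 84.9 CPM per kb (SD, n = 3) in KO-labelled testes. In CPM it had 787, 811 and 698 against 1359, 1122 and 1134, and took 23.2% to 26.6% of the summed CPM of the 36 genes in control testes and 27.3% to 31.1% in KO-labelled testes. The groups did not overlap and the log2 fold change was 0.65 (SE 0.09, edgeR adjusted p = 1.04e-04). *Ldha*, encoding the M subunit, had 61.1, 62.4 and 58.6 CPM against 106, 85.5 and 81.1 CPM and rose by 0.58 (SE 0.10, edgeR adjusted p = 4.33e-04). The ratio of *Ldhb* to *Ldha* differed little between the groups, by 0.08 on the log2 scale (exact permutation test, two-sided p = 0.3, adjusted p = 0.5 over 10 ratios). Some 9.26% of the 50-base runs of *Ldha* occur in other genes.

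Monocarboxylate transporters carry lactate and pyruvate over the membrane, and basigin is the chaperone that brings them there. Of these 4 genes 0 passed edgeR's test (0 at an unadjusted p under 0.05, 0 by DESeq2). *Slc16a1* (MCT1) had 55.8, 71.8 and 61.1 CPM in control testes and 59.98, 67.6 and 61.3 CPM in KO-labelled testes (log2 fold change 0.00, 95% interval -0.21 to 0.22). *Slc16a3* (MCT4, the form of lactate-exporting cells) had 22.3, 26.4 and 36 CPM against 24.1, 30.1 and 36.1 CPM (0.09, 95% interval -0.27 to 0.44), and *Slc16a7* (MCT2) ranged from 7.23 to 8.52 CPM (-0.04, 95% interval -0.36 to 0.29). All 3 transporters overlapped between the groups, and rises as large as that of *Ldhb* lay outside their intervals. *Bsg* had 399, 413 and 425 CPM against 389, 397 and 331 CPM. The KO-labelled libraries were the lower ones, by -0.15 (95% interval -0.33 to 0.03, edgeR adjusted p = 0.2), and per kilobase *Bsg* was second to *Ldhb* in both groups.

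Pyruvate dehydrogenase commits pyruvate to the mitochondrion, and its E1 alpha subunit, the target of the inhibiting kinases PDK1 to PDK4, exists as the X-linked *Pdha1* and the germ cell *Pdha2*. *Pdha1* had 43.8, 37.8 and 40.6 CPM in control testes and 53.7, 50.1 and 44.4 CPM in KO-labelled testes. It was higher by 0.28 under TMM, with -0.06 under somatic marker scaling (SE 0.10, edgeR adjusted p = 0.0408), a call lost in 5 of the 6 fits with a library left out (adjusted p = 0.0559 to 0.124) and kept without KO-labelled replicate 3 (adjusted p = 0.013). *Pdha2* had 7.6, 7.36 and 7.0 CPM against 2.92, 3.25 and 4.19 CPM. Here every KO-labelled library was well below the control, with a log2 fold change of -1.08 (SE 0.19, edgeR adjusted p = 4.43e-04), or 2.12-fold lower. Both kinases of the set lay higher in all KO-labelled libraries. *Pdk1* had 85.5, 81.0 and 75.7 CPM against 94.0, 107 and 115 CPM and rose by 0.38 (SE 0.09, edgeR adjusted p = 0.00440). The X-linked *Pdk3* had 74.1, 85.6 and 72.2 CPM against 89.5, 88.6 and 85.7 CPM, close to touching (0.19, edgeR adjusted p = 0.113), and passed without control replicate 2 (0.31, edgeR adjusted p = 0.0176).

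*Pdha1* and *Pdha2* both passed the test under TMM, there in opposite directions. Among the other germ and somatic pairs only *Ldha* and *Ldhc* were both tested, and *Ldhc* had no call. Scaled to somatic markers *Pdha1* was at -0.06 without a call. Scaled to Sertoli cell markers *Pdha1* was lower (-0.48, edgeR adjusted p = 9.26e-04), the same direction as *Pdha2* (-1.84, edgeR adjusted p = 7.55e-07). The 250 bases before the start of each gene (RefSeq, GRCm38.p6, minus strand) differ in base composition, with 61.6% G or C and 15 CpG for *Pdha1* and 31.6% and 4 CpG for *Pdha2*, and are given with each ACGTG or GCGTG, on either strand, in capitals. The *Pdha1* stretch is chrX:160138431-160138680 and that of *Pdha2* chr3:141212356-141212605.
Pdha1: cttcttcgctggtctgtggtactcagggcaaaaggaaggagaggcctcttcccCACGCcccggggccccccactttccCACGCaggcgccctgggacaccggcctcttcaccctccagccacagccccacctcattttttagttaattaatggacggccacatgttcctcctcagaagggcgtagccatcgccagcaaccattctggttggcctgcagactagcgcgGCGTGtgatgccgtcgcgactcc
Pdha2: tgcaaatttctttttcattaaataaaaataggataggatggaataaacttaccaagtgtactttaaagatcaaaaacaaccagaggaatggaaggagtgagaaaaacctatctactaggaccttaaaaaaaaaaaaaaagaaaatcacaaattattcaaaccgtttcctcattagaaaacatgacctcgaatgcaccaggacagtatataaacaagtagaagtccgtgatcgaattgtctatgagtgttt

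The motif ACGTG or GCGTG, the core of the element that hypoxia-inducible factors bind, was searched on both strands in 300-base promoters (250 bases before to 50 after the start), which the RefSeq table held for 33 of the 36 genes. It occurred in 24 of them (72.7%), beside 43.8% of all 27025 promoters. The GC box core GGGCGG occurred in 57.6% against 35.9%, and CACGTG, the E-box that holds ACGTG, in 12.1% against 7.24%. The cyclic AMP element TGACGTCA occurred in 1 of the 33, *Ldha*, and in 1.88% of all. All these motifs hold a CpG, and the promoters of the 33 genes had a median of 16 CpG beside 7 over all promoters. A match of a few letters is a description of these windows and does not show that a factor binds there.

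Among the germ cell isoforms, only *Pdha2* had counts that allowed a comparison with small error. *Ldhc* had 3.0, 1.6 and 3.79 CPM in control testes and 2.20, 2.99 and 1.2 CPM in KO-labelled testes. The groups overlapped, with a log2 fold change of -0.39 (95% interval -1.14 to 0.36, edgeR adjusted p = 0.437). *Pgk2* had 2, 3 and 4 counts in control testes and 0, 7 and 16 counts in KO-labelled testes, where the 0 of replicate 1 allows a level of up to 0.0824 CPM. *Gapdhs* had 1, 0 and 1 counts against 1, 0 and 0. Both genes were at or near the limit of detection at 33325483 to 44956193 counts per library, and no fold change of either gene is given. These limits cover counting error only.

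Ratios of germ to somatic isoform, formed per kilobase within each library with 1 added to each count, do not depend on the scaling of the libraries. *Pdha2* stood at 27.6%, 31.0% and 27.4% of the level of *Pdha1* per kilobase in control testes and at 8.69%, 10.3% and 15.1% in KO-labelled testes. The ratio was thus lower in every KO-labelled library, by 1.37 on the log2 scale or 2.59-fold, with an exact two-sided permutation p of 0.1, the smallest that 3 libraries against 3 allow over 20 arrangements (adjusted p = 0.25 over 10 ratios). For *Ldhc* to *Ldha* the difference was -0.97 with overlap (exact permutation test, p = 0.2, adjusted p = 0.4). Against the summed counts of the 14 meiotic prophase markers, *Pdha2* was at 0.405%, 0.350% and 0.412% in control testes and 0.627%, 0.605% and 0.685% in KO-labelled testes. It fell less than those markers, by a difference of 0.72 on the log2 scale (exact permutation test, two-sided p = 0.1, adjusted p = 0.2 over 3 ratios), without overlap. *Ldhc* differed by 1.42 on this scale with overlapping libraries (exact permutation test, p = 0.2, adjusted p = 0.2).

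**Figure D3:**
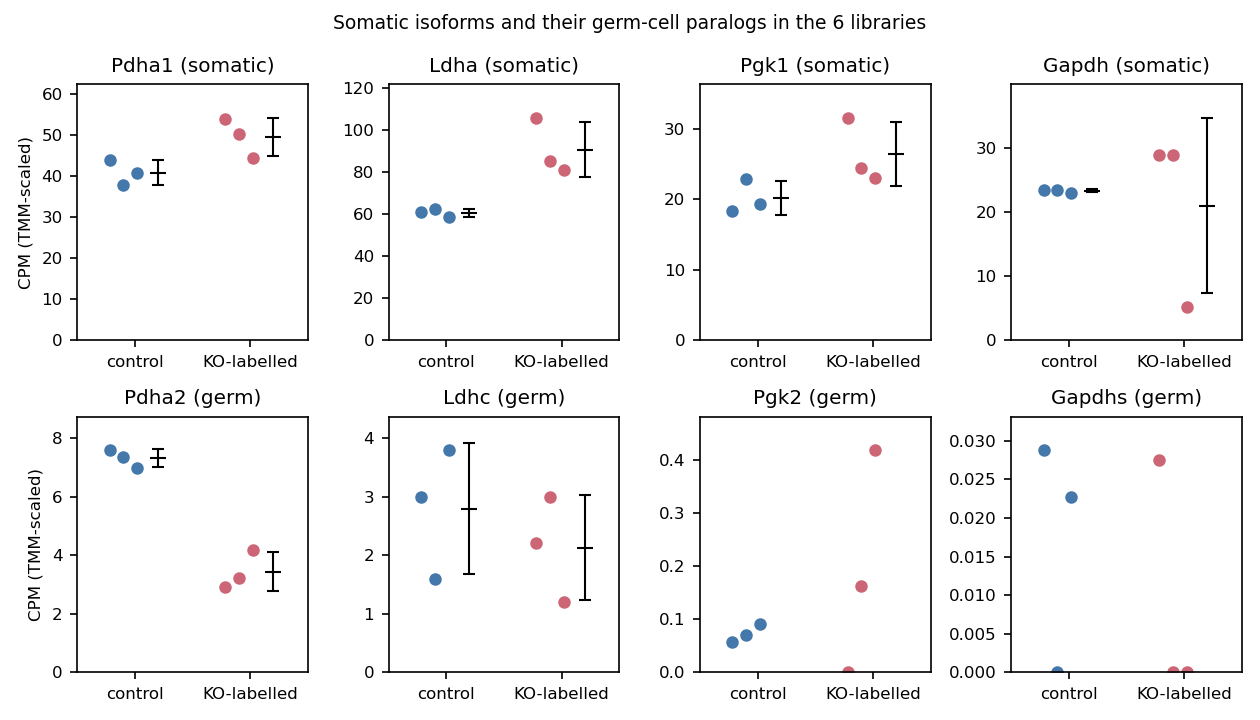
CPM (TMM-scaled) of the 4 somatic isoforms (top) and their germ cell paralogs (bottom) in the 3 control and 3 KO-labelled libraries, as points, with mean and SD beside them except for *Pgk2* and *Gapdhs*, which are at or near 0. *Pdha1* lies higher and *Pdha2* lower in all KO-labelled libraries, and 1 KO-labelled library of *Gapdh* lies at 5.21 CPM.

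Unequal changes within a family shifted the shares of its members, taken as the percent of the family's CPM per kilobase. *Pdha2* made up 22.2% ± 1.21 (SD, n = 3) of the E1 alpha RNA in the control and 10.1% ± 2.63 (SD, n = 3) in the KO-labelled libraries. *Hk2* went from 72.8% ± 0.951 to 78.2% ± 1.47 (SD, n = 3 each) of both hexokinases. In phosphofructokinase the part of *Pfkl* was 42.2% against 34.1%, that of *Pfkm* 51.2% against 56.2% and that of *Pfkp* 6.56% against 9.66%. *Eno1* held 86.1% of the enolases in control testes and 92.7% in KO-labelled testes, and *Eno3* 12.8% and 6.64%. In contrast, *Aldoa* held 97.8% and 98.0% of its family and *Ldhb* 96.0% and 96.4%, so in these the main isoform was nearly the whole of the family in both groups. In log2 ratios the 3 KO-labelled libraries lay above the control for *Hk2* to *Hk1* (0.43), *Pfkp* to *Pfkl* (0.85) and *Slc2a3* to *Slc2a1* (0.24), each with an exact two-sided permutation p of 0.1 and an adjusted p of 0.25 over 10 ratios. The differences of *Aldoc* to *Aldoa* (-0.15) and *Slc16a3* to *Slc16a1* (0.09) were within the spread of the libraries (exact permutation test, p = 0.7 for both, adjusted p = 0.875).

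**Figure D4:**
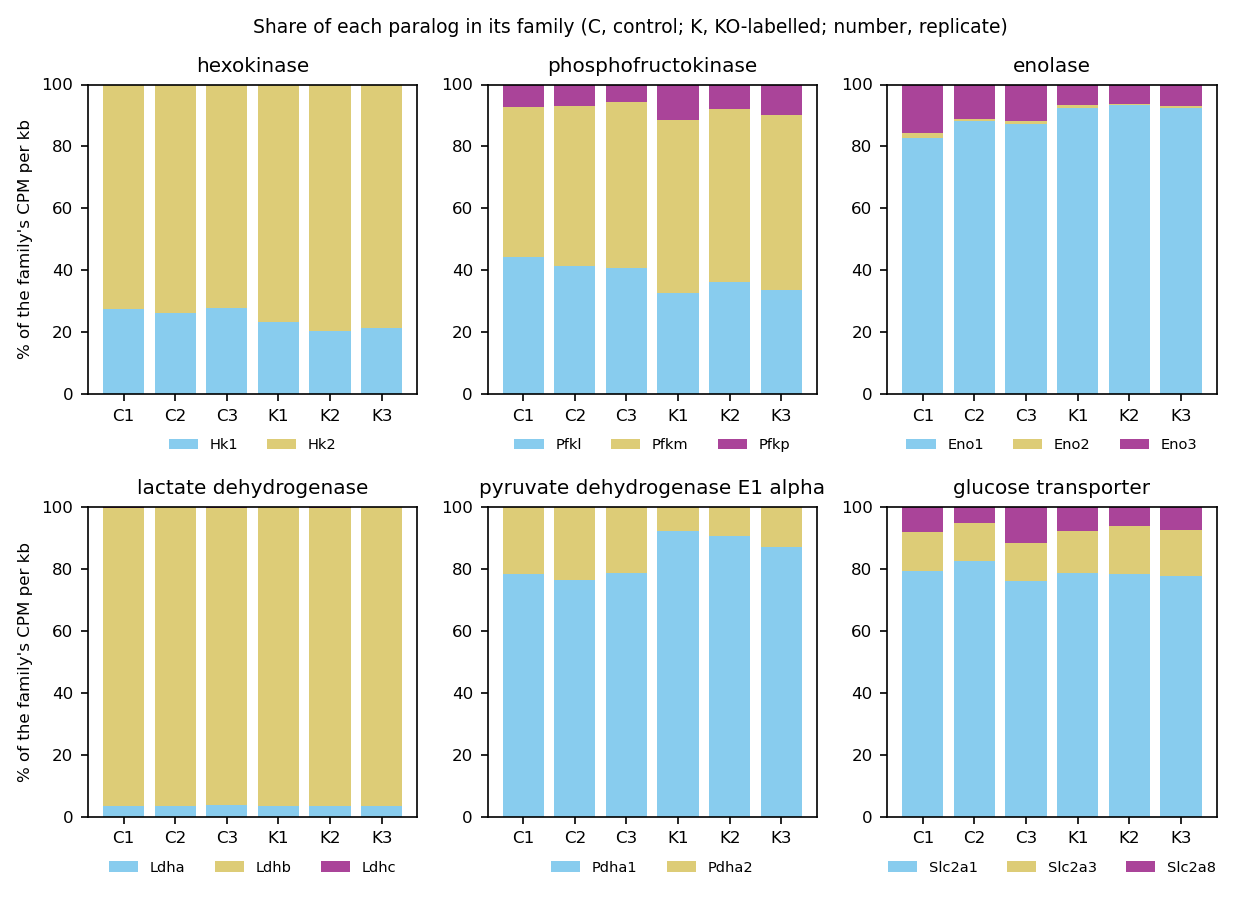
Share of each paralog in 6 families, as percent of the family's summed CPM per kilobase, in each control (C) and KO-labelled (K) library. The share of *Pdha2* is 21.5% to 23.6% in control testes and 7.93% to 13.0% in KO-labelled testes, while *Ldhb* holds 95.7% or more of its family in all 6.

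The direction of the calls depended on how the libraries were scaled. With the libraries scaled to 57 markers of 6 somatic cell types, the median of all genes moved by -0.34 on the log2 scale, and 3 of the 33 genes were higher (*Pfkp* 0.60, *Pgam1* 0.44, *Aldoa* 0.38) and 5 lower (*Pdha2* -1.41, *Eno3* -1.17, *Eno2* -1.03, *Bsg* -0.49, *Slc16a1* -0.33), beside 3.01% and 34.9% of all genes. Scaled to the 13 Sertoli cell markers alone, a choice made after seeing the data, 0 genes were higher by edgeR (0 at an unadjusted p under 0.05) and 20 lower, beside 0.551% and 70.6% of all genes. There *Pfkp* (0.20), *Pgam1* (0.04), *Aldoa* (-0.04), *Ldhb* (-0.10), *Hk2* (-0.11), *Pkm* (-0.13) and *Ldha* (-0.17) did not pass the test, so their change per unit of Sertoli marker RNA was not distinguishable from 0 with standard errors of 0.07 to 0.14. Other genes called higher under TMM were called lower there (edgeR adjusted p = 4.67e-05 to 0.029). These were *Hk1* (-0.53), *Pdha1* (-0.48), *Slc2a1* (-0.44), *Pdk1* (-0.38), *Pgk1* (-0.37) and *Pfkfb3* (-0.29). In all 3 scalings *Pdha2* and *Eno3* were lower and past the threshold.

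**Figure D5:**
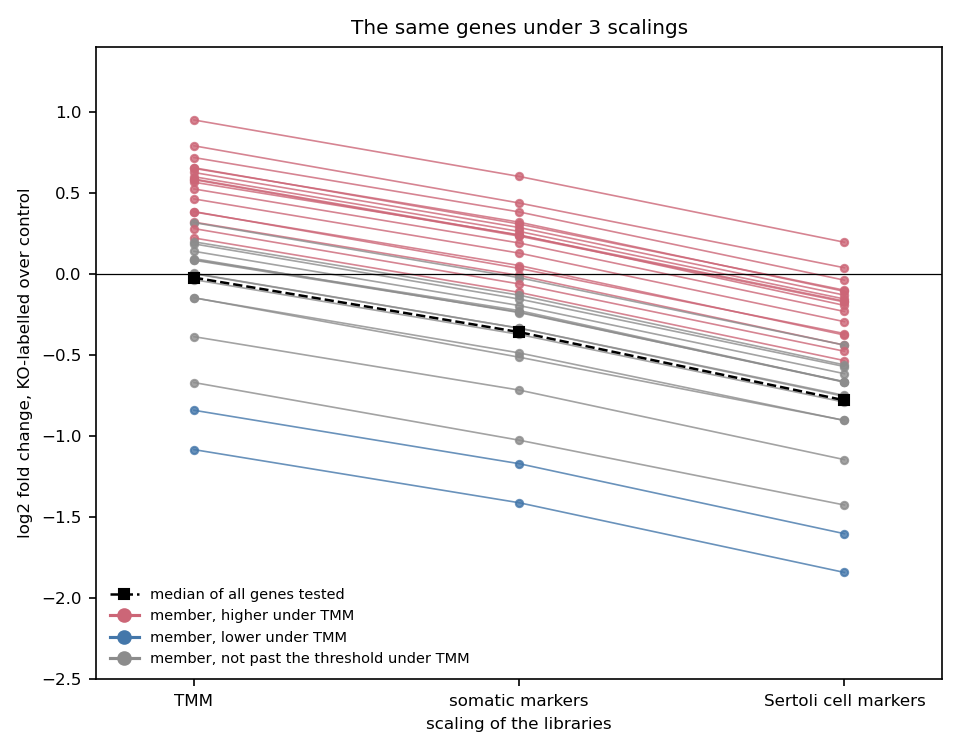
Log2 fold change (KO-labelled over control) of the 33 tested genes, 1 line each, with the libraries scaled by TMM, by 57 somatic markers and by 13 Sertoli cell markers, and the median of all genes tested (dashed). All lines shift down together, the median of all genes from -0.02 through -0.36 to -0.78, and *Pdha2* and *Eno3* stay lowest.

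Another 61 genes of glucose and pyruvate metabolism, in 5 lists, were read for comparison, of which 54 were tested. Under TMM 18 were higher and 4 lower, beside 16.2% and 16.5% of all genes tested, with a median log2 fold change of 0.15. Under the somatic marker scaling 2 of the 54 were higher and 13 lower, beside 3.01% and 34.9% of all genes. Among 10 tested transport genes 3 were higher and 2 lower under TMM, beside the same 16.2% and 16.5%. *Emb*, which encodes embigin, the chaperone of MCT2, had 20.9, 20.02 and 18.8 CPM in control testes and 27.4, 26.3 and 27.4 CPM in KO-labelled testes (log2 fold change 0.44, edgeR adjusted p = 0.00370), and *Slc2a12* rose by 0.49. Both subunits of the mitochondrial pyruvate carrier fell, *Mpc1* from 16.2, 17.7 and 20.2 to 10.7, 11.9 and 9.38 CPM (-0.76, edgeR adjusted p = 6.77e-04) and *Mpc2* by 0.36 on the log2 scale. The third gene called higher was *Slc2a2*, the liver-type glucose transporter, at a mean of 4.33 CPM in KO-labelled testes.

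Of 14 tested enzymes of or near glycolysis outside the 36, paralogs included, 5 were higher and 1 lower, beside 16.2% and 16.5% of all genes. The 5 higher genes included *Ldhd* (0.53), *G6pc3* (0.46) and *Tigar* (0.40). *G6pc3* and *Tigar* encode phosphatases that are not steps of the glycolytic chain itself. *Pgm2*, a phosphoglucomutase, had 15.1, 18.8 and 19.8 CPM against 31.9, 30.1 and 30.6 CPM (0.78, edgeR adjusted p = 1.37e-04). *Aldoart1*, a retrogene of *Aldoa* known from sperm, had 2.39, 1.67 and 2.66 CPM against 4.10, 4.69 and 6.05 CPM (1.14, edgeR adjusted p = 0.00191). It shares 94 runs of 50 bases with *Aldoa*, which rose too. *Eno4*, the enolase of sperm, had 4.49, 4.8 and 4.72 CPM against 1.68, 1.94 and 3.27 CPM (-1.02, edgeR adjusted p = 0.00563). *Aldoart1* and *Eno4* thus lay on opposite sides of the control. *Ldhal6b*, another paralog of this list, lay below the control in all KO-labelled libraries without a call (-0.74, edgeR adjusted p = 0.0593).

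The pentose phosphate pathway draws on glucose 6-phosphate to make NADPH and ribose. Beside 16.2% and 16.5% of all genes, 2 of 9 listed genes of this pathway were higher and 1 lower. They were *G6pdx*, its first enzyme (0.50, edgeR adjusted p = 2.03e-04), transketolase *Tkt* (0.54, edgeR adjusted p = 3.24e-04) and the isomerase *Rpia* (-0.53, edgeR adjusted p = 0.00102). The other subunits and regulators of pyruvate dehydrogenase had 1 of 9 past the test, beside 32.7% of all genes in either direction. It was the phosphatase *Pdp2* (0.36, edgeR adjusted p = 0.0482). Of 12 genes listed for the response to low oxygen outside glycolysis, 7 were higher and 0 lower by edgeR (0 lower at an unadjusted p under 0.05). The shares of all genes were 16.2% and 16.5%. The rises were led by the transcriptional repressor *Mxi1* (0.52, edgeR adjusted p = 9.85e-05) and the collagen prolyl hydroxylase subunit *P4ha1* (0.46, edgeR adjusted p = 6.41e-04). The 7 include *Hif1a* (0.29) and *Epas1* (0.46), which encode hypoxia-inducible factors themselves. *Egln3* (0.05), *Bnip3* (0.08), *Adm* (0.15), *Ndrg1* (-0.06) and *Ankrd37* (-0.12) had no call. The median of the 12 was 0.27. Under the somatic marker scaling 0 of them were higher and 1 lower, beside 3.01% and 34.9% of all genes.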

How the data were processed

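Whole testes at postnatal day 12 were sequenced as 3 control and 3 KO-labelled libraries. The authors processed single-end reads with cutadapt, HISAT2 (GRCm38.p5) and featureCounts 1.6.4 (GENCODE M18) and deposited raw counts per gene, 33325483 to 44956193 per library. Reads on the sense strand that map to 1 place and 1 gene were counted. Symbols came from GENCODE M21 (54165 of 54232 identifiers), and 0 columns of library values were left unused. Groups came from the sample labels.

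Counts were tested in edgeR 4.0.16 (R 4.3.3; TMM, filterByExpr, glmQLFit, glmQLFTest), with a call at an adjusted p under 0.05. Ratios were tested by exact permutation over the 6 libraries. Alternatives were DESeq2 1.42.0, limma-voom (limma 3.58.1), RLE factors, somatic marker factors, 2 other count filters, a replicate block and each library left out. Replicates differed beyond sampling noise (smallest chi-square per degree of freedom 10), and same-numbered libraries were not related (correlations -0.0014, -0.0126 and 0.0139). The edgeR, DESeq2 and limma-voom fits were checked on simulated counts, and the permutation tests and marker scalings were not.

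The members, gene lists and tests were chosen with earlier results of these data known. All 36 genes are named. Values in every library are given for the 4 isoform pairs and for the gene with the smallest adjusted p in each role and any other past the test. From other pathway lists 2 genes per direction and from marker lists 1 are named, by smallest adjusted p. *Slc2a2*, *Ldhal6b*, *Tnp2*, *Ldhd*, *G6pc3*, *Tigar*, *Tnnt3*, *Myh4* and *Myh1* were named after their values were seen. So were *Hif1a*, *Epas1*, *Egln3*, *Bnip3*, *Adm*, *Ndrg1* and *Ankrd37*. The sequence stretches of 1 isoform pair are not reported here.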

Additional observations from a re-analysis of the deposited data

How the results depend on the processing

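With each library left out, 13 to 17 genes (of 33 or 34 that passed the filter) were higher and 2 lower, and of the other pathway genes 14 to 17 were higher and 4 lower. The replicate numbers do not pair the libraries, and with the replicate number as a block 17 genes were higher and 2 lower, with 17 and 4 of the other pathway genes. DESeq2, limma-voom, RLE factors and both other filters gave 15 to 17 higher and 2 lower. Somatic marker scaling gave 3 higher and 5 lower, and 2 and 13 of the other pathway genes. Sertoli marker scaling, added later, gave 0 and 20. Among genes of at least 10 CPM in a group 0 were lower, a filter that *Eno3* and *Pdha2* did not pass. Directions turned under somatic marker scaling for *Slc2a1* (-0.0097), *Slc2a8* (-0.24), *Hk1* (-0.11), *Gpi1* (-0.20), *Pfkl* (-0.24), *Pfkfb2* (-0.33), *Pfkfb4* (-0.024), *Eno1* (-0.13), *Slc16a1* (-0.33), *Slc16a3* (-0.23), *Pdha1* (-0.062) and *Pdk3* (-0.16). *Pfkfb2* was at -0.0074 by limma-voom, and *Pfkfb2* at -0.019 and *Slc16a1* at -0.021 with at least 10 counts in every library. With libraries left out, *Slc2a8* ran from -0.18 to 0.52, *Pfkl* from -0.020 to 0.18, *Pfkfb2* from -0.070 to 0.10, *Gapdh* from -0.44 to 0.32, *Slc16a1* from -0.081 to 0.15, *Slc16a3* from -0.055 to 0.30 and *Slc16a7* from -0.092 to 0.047. *Gapdh* was at 0.32 summed with its pseudogenes and at 0.37 with *Gm13394*. Left-out libraries moved the log2 ratio of *Gapdhs* to *Gapdh* between -0.45 and 0.86, *Pgk2* to *Pgk1* between -0.91 and 1.32 (-0.12 with 0.5 added to each count), *Aldoc* to *Aldoa* between -0.27 and 0.0094 and *Slc16a3* to *Slc16a1* between -0.067 and 0.30. The cause of these moves was not tested. No change is read from the ratios of *Gapdhs* and *Pgk2*, which rest on few counts and on the number added to them. *Gapdhs*, *Pgk2* and *Pgam2* had 0 to 16 counts in a library, too few to be tested at this depth.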
